A study of Mus musculus with 6 samples.

Results

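The TGF-β ligands and their receptors are 6 genes of the 18193 named genes on the array, namely Tgfb1, Tgfb2 and Tgfb3, which encode the ligands, and Tgfbr1, Tgfbr2 and Tgfbr3, which encode the receptors. They were taken by name, as every probe set whose array annotation gives a single one of these symbols, which yielded 15 probe sets of the 45037 analysed. The family was chosen from earlier results of the same contrast, and the rule that names it sets these 2 groups against each other, so the differences of the 6 genes between the groups are given as a description without p-values. Expression was measured in undifferentiated mouse iPSCs, induced pluripotent stem cells that were reprogrammed from embryonic fibroblasts of Nanog-GFP mice with retroviral Oct3/4, Sox2, Klf4 and c-Myc. The (+)/(+) group (clones 4, 5 and 6) received 3i during both reprogramming and maintenance, where 3i stands for CHIR99021 against GSK3, PD184352 against MEK and SU5402 against FGF receptors. The (-)/(+) group (clones 1, 2 and 3) received 3i only after colonies had been picked. All clones were thus kept in 3i with serum and LIF on SNL feeder cells, a fibroblast line, and each group holds 3 clones with 1 array per clone.

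A TGF-β ligand is secreted in a latent complex, and once released it binds TGFBR2, a type II receptor kinase, which recruits and phosphorylates the type I receptor kinase TGFBR1. TGFBR1 in turn phosphorylates SMAD2 and SMAD3, which enter the nucleus with SMAD4. TGFBR3, also called betaglycan, is a co-receptor with no kinase domain that presents ligand to TGFBR2 and is best known for its binding of TGF-β2. In fibroblasts the pathway drives collagen and contractile genes, and in reprogramming it opposes the transition of fibroblasts to an epithelial state.

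Each value is a MAS 5.0 signal on a linear scale, and all 6 arrays had been scaled to the same trimmed mean. Differences are on log2(signal + 16), on which changes of dim probe sets come out too small. Only the brighter part of the probe sets was tested with limma, those whose mean log2 value exceeded the median, equal to a signal of 67.2. Markers of undifferentiated iPSCs were present, as all 12 examined were bright enough to be tested, with 1 higher (Fbxo15), 0 lower and a median log2 difference of 0.10. Nanog, for example, had signals of 15744, 16347 and 15986 in (+)/(+) clones 4, 5 and 6, against 14402, 12676 and 13966 in (-)/(+) clones 1, 2 and 3. Single clones carried chromosome-wide shifts, with a median log2 shift of 0.41 on chromosome 8 in clone 4 and 0.27 on chromosome 11 in clone 1. None of the 6 genes lies on these chromosomes. On chromosomes 4, 5 and 9, which carry Tgfbr1, Tgfbr3 and Tgfbr2, no clone was shifted by more than 0.04 on the log2 scale. RNA quality, read from the 3′ to 5′ signal ratio of Gapdh, was 0.821 to 0.866 in the (+)/(+) clones and 0.825 to 0.848 in the (-)/(+) clones. The same ratio of Actb was 1.56 to 1.77 in the (+)/(+) clones and 1.61 to 1.75 in the (-)/(+) clones.

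The receptors Tgfbr3 and Tgfbr2 had lower signals in the (+)/(+) iPSCs, the type I receptor Tgfbr1 had similar signals in both groups, and the ligands were near the bottom of the signal range. Of the 15 probe sets, 3 were bright enough to be tested, 1 for each receptor gene. In the fit over all 22518 tested probe sets, 2 of these 3 were lower at an adjusted p under 0.05 and 0 were higher, where 3.12% of all tested probe sets passed in either direction and 1.77% passed as lower. The groups did not overlap in the same 2 probe sets, against 27.1% of all tested ones. The count of 2 was 1 without clone 3, 4, 5 or 6, where Tgfbr2 was not called. Since this contrast was used to choose the family, nothing is read from these counts.

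Tgfbr3, the betaglycan gene, was measured by 1433795_at and had signals of 285, 401 and 335 in (+)/(+) clones 4, 5 and 6, against 795, 736 and 867 in (-)/(+) clones 1, 2 and 3. Every (+)/(+) clone lay below every (-)/(+) clone. The means were 340 ± 58.3 in the (+)/(+) clones and 799 ± 65.7 in the (-)/(+) group (SD, n = 3 each), which gave a ratio of 0.426. The log2 difference was -1.20 with a standard error of 0.15, and 129 of the 22518 tested probe sets differed by at least as much in either direction. With 1 clone left out, the log2 difference lay between -1.32 and -1.09.

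Tgfbr2, the type II receptor that binds the ligand first, was measured by 1426397_at and had signals of 234, 262 and 185 in (+)/(+) clones 4, 5 and 6, against 416, 449 and 613 in (-)/(+) clones 1, 2 and 3. The groups did not overlap here either, with the (-)/(+) clones more spread than for Tgfbr3 as clone 3 was high. The means were 227 ± 39.3 in the (+)/(+) clones and 492 ± 105 in the (-)/(+) group (SD, n = 3 each), which gave a ratio of 0.461, and the log2 difference was -1.06 with a standard error of 0.19. With 1 clone left out, its log2 difference lay between -1.17 and -0.90.

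Tgfbr1, the type I receptor that hands the signal to SMAD2 and SMAD3, was measured by 1420895_at and had signals of 1362, 1521 and 1606 in (+)/(+) clones 4, 5 and 6, against 1331, 1013 and 1638 in (-)/(+) clones 1, 2 and 3. The groups overlapped, and all 3 (+)/(+) clones lay within the range of the (-)/(+) clones. The means were 1496 ± 124 in the (+)/(+) clones and 1328 ± 313 in the (-)/(+) group (SD, n = 3 each). The log2 difference was 0.19 with a 95% interval of -0.17 to 0.56, which holds 0 as well as a moderate rise or a small fall.

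**Figure D1:**
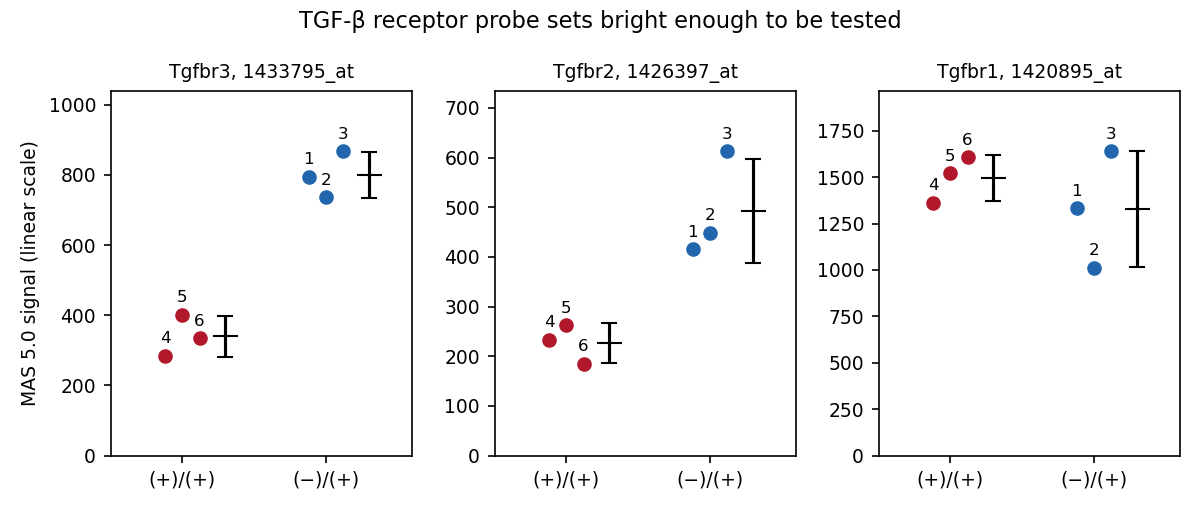
MAS 5.0 signal (y axis, linear, a separate scale per panel) of the tested probe set of Tgfbr3, Tgfbr2 and Tgfbr1 in (+)/(+) clones 4 to 6 (red) and (-)/(+) clones 1 to 3 (blue), with clone numbers above the points and the mean ± SD beside them (n = 3 each). For Tgfbr3 and Tgfbr2 the red points lie below all blue points, and for Tgfbr1 they lie between the lowest blue point (1013) and the highest (1638).

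The promoter windows of Tgfbr2 and Tgfbr1 are shown because one gene was lower in the (+)/(+) iPSCs and the other was not. They run from 250 bases before to 50 after an annotated RefSeq start on GRCm38.p6, and windows were matched by symbol for 4 of the 6 genes, Tgfb1, Tgfb2, Tgfbr1 and Tgfbr2, not for Tgfb3 and Tgfbr3. Capitals mark the Sp1 box (GGGCGG or CCGCCC on the printed strand) and the CCAAT box (CCAAT or ATTGG), and no marked matches overlap. The Tgfbr2 window lies at chr9:116175314-116175613 on the minus strand and the first of the pair listed for Tgfbr1 at chr4:47352972-47353271 on the plus strand.
Tgfbr2: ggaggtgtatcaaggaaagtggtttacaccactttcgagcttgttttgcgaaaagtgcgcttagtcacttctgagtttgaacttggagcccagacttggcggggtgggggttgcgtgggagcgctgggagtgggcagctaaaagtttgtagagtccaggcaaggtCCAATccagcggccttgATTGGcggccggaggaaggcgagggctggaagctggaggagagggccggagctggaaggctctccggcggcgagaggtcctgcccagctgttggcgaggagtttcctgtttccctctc
Tgfbr1: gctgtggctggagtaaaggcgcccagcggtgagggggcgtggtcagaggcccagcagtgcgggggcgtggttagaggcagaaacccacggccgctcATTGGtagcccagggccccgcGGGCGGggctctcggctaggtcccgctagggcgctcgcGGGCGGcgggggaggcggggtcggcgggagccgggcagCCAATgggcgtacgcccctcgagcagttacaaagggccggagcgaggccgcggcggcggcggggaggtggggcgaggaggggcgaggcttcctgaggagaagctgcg
Both windows hold 2 CCAAT boxes, a motif found in 37.4% of 32851 windows of this length. The Tgfbr1 window holds 2 Sp1 boxes and the Tgfbr2 window holds 0, where 35.7% of all windows have at least 1. G or C made up 59% of the Tgfbr2 window, with 15 CpG dinucleotides, and 74.7% of the Tgfbr1 window, with 34, against medians of 52.7% and 7 over all windows. Neither window holds a TATA box (TATAAA, in 13.6% of all windows), an AP-1 site (TGANTCA, in 7.81%) or the palindromic SMAD element GTCTAGAC (in 0.213%), each searched on both strands. The second Tgfbr1 window, at chr4:47385966-47386265 on the plus strand, holds 0 Sp1 boxes, 1 CCAAT box and 3 CpG dinucleotides at 52% G or C, so the difference in Sp1 boxes between the genes holds for the first window only. A match describes letters and is no evidence of binding.

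The ligands gave signals too low to be tested in any of their 7 probe sets, as did the other 5 receptor probe sets. Mean signals of these 12 probe sets lay between 6.64 and 59.4, and single clones between 0.565 and 80.3 in the (+)/(+) group and between 1.53 and 102 in the (-)/(+) group. Signals of this size hold little information on level, so no fold is given. Tgfb1, the most widely expressed of the ligands, had 30.6, 43.3 and 32.0 in (+)/(+) clones 4, 5 and 6, against 1.53, 37.5 and 4.32 in (-)/(+) clones 1, 2 and 3, in 1420653_at. The groups overlapped through clone 2, and in the other Tgfb1 probe set, 1445360_at, all (+)/(+) clones lay inside the (-)/(+) range. Tgfb2, the ligand that depends most on betaglycan, had 4 probe sets with mean signals of 12.1 to 59.4, and the groups overlapped in all 4. The brightest, 1450923_at, had 51.4, 80.3 and 43.0 in (+)/(+) clones 4, 5 and 6, against 64.5, 58.3 and 59.1 in (-)/(+) clones 1, 2 and 3.

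Tgfb3, the ligand known for its role in fusion of the palate, was the member among the dim ones whose groups did not overlap, and 13.1% of all probe sets too dim to be tested shared that property. Its single probe set 1417455_at had 16.5, 18.3 and 17.95 in (+)/(+) clones 4, 5 and 6, against 31.8, 101 and 102 in (-)/(+) clones 1, 2 and 3. The (-)/(+) clones were uneven, with clones 2 and 3 high and clone 1 closer to the (+)/(+) clones than to them. The remaining receptor probe sets, 2 for Tgfbr1, 2 for Tgfbr2 and 1 for Tgfbr3, had overlapping groups and mean signals of 6.64 to 48.9, so each receptor result rests on 1 probe set.

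**Figure D2:**
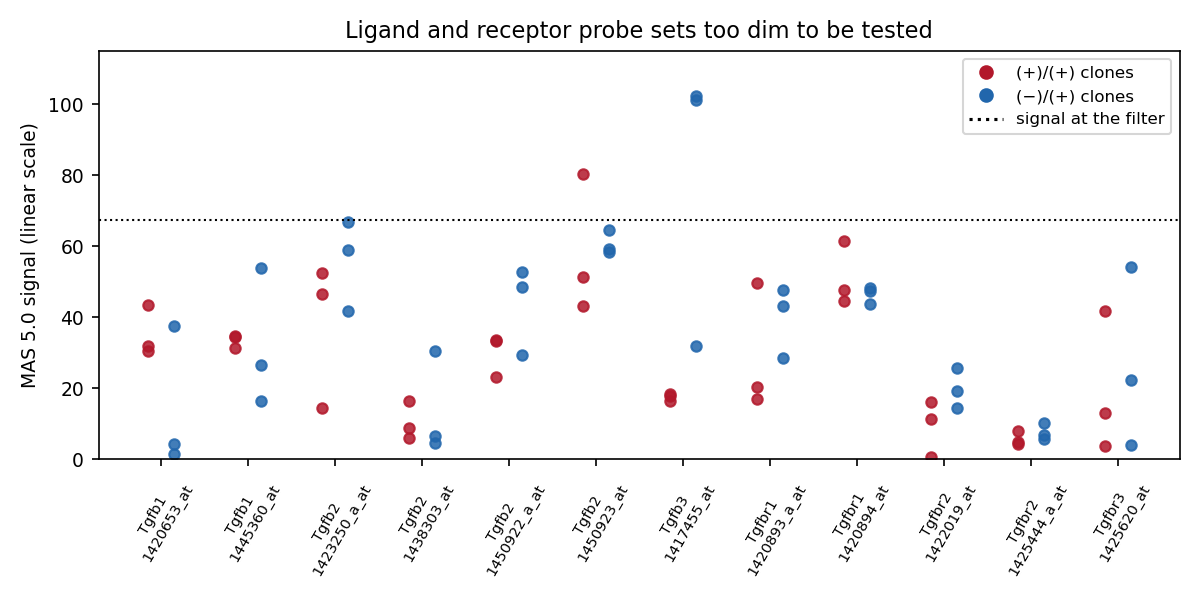
MAS 5.0 signal (y axis, linear) of the 12 ligand and receptor probe sets too dim to be tested (x axis), with red points for (+)/(+) and blue points for (-)/(+) clones and a dotted line at 67.2, the signal at the filter. Apart from Tgfb3 in 1417455_at, where the (-)/(+) clones reach 102 and the (+)/(+) clones 18.3, red and blue points overlap in every probe set.

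The SMADs and their regulators, which carry and limit the signal inside the cell, gave a single call. Of 27 listed genes 26 were tested, 1 was higher and 0 were lower in the (+)/(+) iPSCs, and the median log2 difference was 0.01, where 2.96% of all 11178 tested genes passed (1 probe set each, the brightest) and their median was -0.05. The higher gene was Bambi, which encodes a decoy receptor without a kinase domain. It had 936, 989 and 1115 in (+)/(+) clones 4, 5 and 6, against 586, 497 and 647 in (-)/(+) clones 1, 2 and 3. This log2 difference was 0.80 (standard error 0.14, adjusted p = 0.018 from limma), and it did not pass without clone 5 (adjusted p = 0.065) or clone 6 (adjusted p = 0.11). Among the effectors of the receptors, named after their values were seen, Smad3 had 454, 436 and 333 in (+)/(+) clones 4, 5 and 6, against 643, 569 and 600 in (-)/(+) clones 1, 2 and 3. Smad3 did not pass (log2 difference -0.56, adjusted p = 0.072 from limma), although its groups did not overlap. Smad2 had 1241 ± 33.9 in the (+)/(+) clones and 1170 ± 78.5 in the (-)/(+) clones, and the shared partner Smad4 had 3173 ± 337 in the (+)/(+) clones and 3159 ± 174 in the (-)/(+) group (SD, n = 3 each), with 95% intervals of the log2 difference of -0.16 to 0.33 for Smad2 and -0.24 to 0.24 for Smad4.

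The other receptors of the superfamily, most of which bind activins, Nodal or BMPs, gave 0 calls among 10 tested of 13 listed genes in limma, with 0 at an unadjusted p under 0.05. The median log2 difference was -0.07. Tdgf1, the Nodal co-receptor gene also called Cripto, had 25250 ± 2022 in the (+)/(+) clones and 23544 ± 424 in the (-)/(+) clones. Bmpr1a, a type I receptor for BMPs, had 1783 ± 63.0 in the (+)/(+) clones and 1752 ± 192 in the (-)/(+) group (SD, n = 3 each). The 95% interval of the log2 difference was -0.07 to 0.27 for Tdgf1 and -0.22 to 0.29 for Bmpr1a. The groups did not overlap for 1 of the 10 tested genes, Eng, against 27.1% of all tested probe sets. Eng had 222 ± 14.9 in the (+)/(+) clones and 280 ± 26.1 in the (-)/(+) group (SD, n = 3 each). It did not pass (log2 difference -0.31, adjusted p = 0.26 from limma) and was named after its values were seen.

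Genes that store, release or trap the ligand outside the cell showed 2 lower and 0 higher calls among 15 tested of 28 listed, a share of 13.3%, where 2.96% of all tested genes passed in either direction and 1.41% as lower. The median log2 difference was -0.44, and 12 of the 15 differences were negative, as were 57.6% of those of all tested genes. Since earlier results of these data were known when the list was chosen, these counts only describe it. The proteoglycan gene Bgn, whose product binds TGF-β in the matrix, had 634, 851 and 735 in (+)/(+) clones 4, 5 and 6, against 1359, 1459 and 1943 in (-)/(+) clones 1, 2 and 3. It fell by 1.08 on the log2 scale (standard error 0.16, adjusted p = 0.011 from limma) and did not pass without clone 6 (adjusted p = 0.068). Its other tested probe sets had log2 differences of -1.64 and -1.04. Ltbp3, which encodes a latent TGF-β binding protein, had 550 ± 128 in the (+)/(+) clones and 969 ± 165 in the (-)/(+) group (SD, n = 3 each). It fell by 0.81 (adjusted p = 0.043 from limma) and was called when clone 2 was left out, but in none of the fits without another clone, where the adjusted p lay between 0.051 and 0.17. The other tested probe set of Ltbp3 did not pass (log2 difference -0.55, adjusted p = 0.12), nor did the mean of both (adjusted p = 0.10).

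TGF-β target genes, taken from what the pathway induces in fibroblasts and epithelia, showed 4 lower and 1 higher call among 22 tested of 26 listed, with a median log2 difference of -0.39. This was a share of 22.7%, against 2.96% of all tested genes in either direction. The list was chosen with earlier results of these data known, so the share is given as a description. Col1a2, a chain of type I collagen, had 468, 694 and 558 in (+)/(+) clones 4, 5 and 6, against 1441, 1701 and 2096 in (-)/(+) clones 1, 2 and 3. It fell by 1.58 (adjusted p = 0.0043 from limma) and passed in all 16 alternatives. The metalloproteinase inhibitor gene Timp3 had 154 ± 33.8 in the (+)/(+) clones and 424 ± 84.3 in the (-)/(+) group (SD, n = 3 each, adjusted p = 0.011 from limma), and it failed without clone 6 (adjusted p = 0.066). The collagen gene Col3a1 had 185 ± 44.7 in the (+)/(+) clones and 404 ± 79.2 in the (-)/(+) clones (adjusted p = 0.027 from limma), and it was called with clone 1 left out but not without any other clone (adjusted p = 0.057 to 0.099). Acta2, the smooth muscle actin gene, was the other lower call, with 240 ± 4.04 in the (+)/(+) clones and 440 ± 97.6 in the (-)/(+) clones (adjusted p = 0.036 from limma). Acta2 was named after its values were seen. It was called in 5 of 14 alternatives, with clone 1 left out but not without any other clone (adjusted p = 0.060 to 0.14), and not after quantile normalization (adjusted p = 0.063) or scaling to a common median (adjusted p = 0.053).

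The opposite direction was seen for Ccn2, which encodes a secreted matricellular protein. Ccn2 had 5908, 6490 and 6894 in (+)/(+) clones 4, 5 and 6, against 3821, 3584 and 4535 in (-)/(+) clones 1, 2 and 3, a rise of 0.69 on the log2 scale (adjusted p = 0.014 from limma). It did not pass without clone 5 (adjusted p = 0.056) or clone 6 (adjusted p = 0.090), nor with eBayes without trend (adjusted p = 0.057). The feedback inhibitor gene Smad7, a direct target, had 960, 1073 and 1005 in (+)/(+) clones 4, 5 and 6, against 839, 1752 and 1182 in (-)/(+) clones 1, 2 and 3, and the groups overlapped (adjusted p = 0.55 from limma). Smad7 was named after its values were seen.

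**Figure D3:**
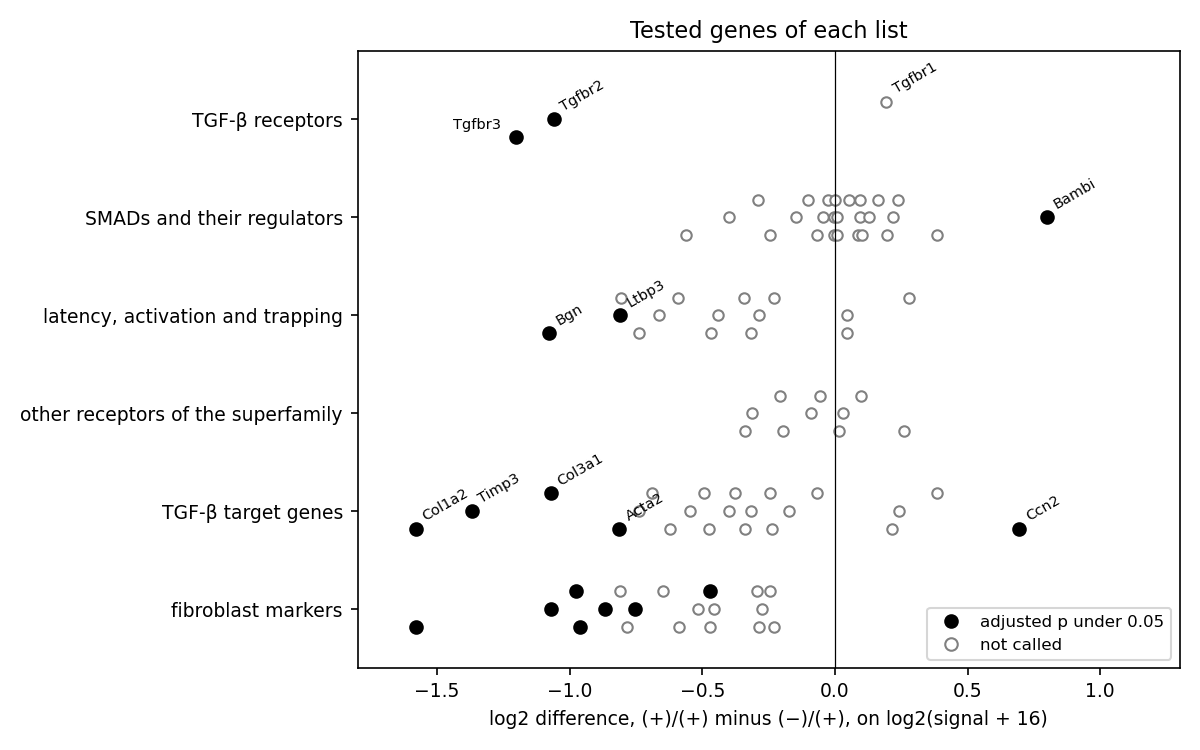
Log2 difference, (+)/(+) minus (-)/(+), on log2(signal + 16) (x axis) for every tested gene of each list (rows), 1 probe set per gene, with filled points for an adjusted p under 0.05 over all tested probe sets and open points for the rest. The SMADs with their regulators and the other receptors spread around 0, from Smad3 at -0.56 to Bambi at 0.80. Tgfbr3 and Tgfbr2, at -1.20 and -1.06, lie near the lower end of the matrix and fibroblast genes.

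Markers of fibroblasts, which were the starting cells and form the feeder layer, were lower together with Tgfbr2 and Tgfbr3, and the methods do not state that feeder cells were removed before RNA was taken. Of 24 listed markers 19 were tested, 7 were lower and 0 higher in the (+)/(+) iPSCs, all 19 differences were negative, and their median was -0.59. This list, too, was chosen with earlier results of these data known, so its counts and share are a description. The called share was 36.8%, against 2.96% of all tested genes in either direction and 1.41% as lower, and 57.6% of all tested genes had a negative difference. Among them Vim, an intermediate filament gene, fell by 0.87 (adjusted p = 0.011 from limma) and Fbln2, which encodes a matrix glycoprotein, fell by 0.98 (adjusted p = 0.019 from limma). Col1a2, Col3a1, Col5a1, Col5a2 and Sparc, all genes of the matrix, were the other lower markers. Col5a1 was called in 7 of 15 alternatives and failed without clone 2, 3, 4, 5 or 6 (adjusted p = 0.061 to 0.14) and in the mean of its probe sets (adjusted p = 0.35). Col5a2 was called in 5 of 15 and failed without clone 3, 4, 5 or 6 (adjusted p = 0.080 to 0.13). Sparc was called in 5 of 16 and failed whichever clone was left out (adjusted p = 0.061 to 0.16). It lies on chromosome 11, which was shifted in clone 1. Its other probe sets gave log2 differences of -0.61 (adjusted p = 0.049 from limma) and 0.45 (adjusted p = 0.39). The mean of its probe sets did not pass (adjusted p = 0.47). Col5a1, Col5a2 and Sparc were named after their values were seen. Vim lost its call without clone 6 (adjusted p = 0.068) and with eBayes without trend (adjusted p = 0.054). Fbln2 lost its call without clone 3, 4 or 6 (adjusted p = 0.081, 0.064 and 0.10) and in the mean of its probe sets (adjusted p = 0.17). Of the 23 measured markers, Col1a1, Lum, Twist2 and Fap were too dim to be tested. The list shares Col1a2, Col3a1 and 1 gene too dim to be tested with the target list.

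The summed signal of the 23 markers was 14157, 15902 and 15119 in (+)/(+) clones 4, 5 and 6, against 22443, 27890 and 29050 in (-)/(+) clones 1, 2 and 3, a ratio of means of 0.569. Within each group the clone with the highest sum, clone 5 and clone 3, also had the highest signals of Tgfbr3 and Tgfbr2. The order of the other clones was mixed. Clone 2 had a higher sum than clone 1 but a lower Tgfbr3 signal (736 against 795), and a higher Tgfbr2 signal (449 against 416). Clone 6 had a higher sum than clone 4 but a lower Tgfbr2 signal (185 against 234), and a higher Tgfbr3 signal (335 against 285). Without Vim, which gave the largest part, the sum was 7757, 8221 and 8163 in (+)/(+) clones 4, 5 and 6, against 12001, 12836 and 15855 in (-)/(+) clones 1, 2 and 3. Single tested markers had ratios from 0.328 for Col1a2 to 0.849 for Mmp2. Among these markers, only Col1a2 had a ratio below that of Tgfbr3 (0.426). Only Col1a2 and Col3a1 (0.457) had a ratio below that of Tgfbr2 (0.461), and all other tested markers fell less than both receptors. The part of fibroblasts in the receptor result was not tested. In RNA from whole cultures, fewer cells of a type and less RNA per cell cannot be told apart.

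**Figure D4:**
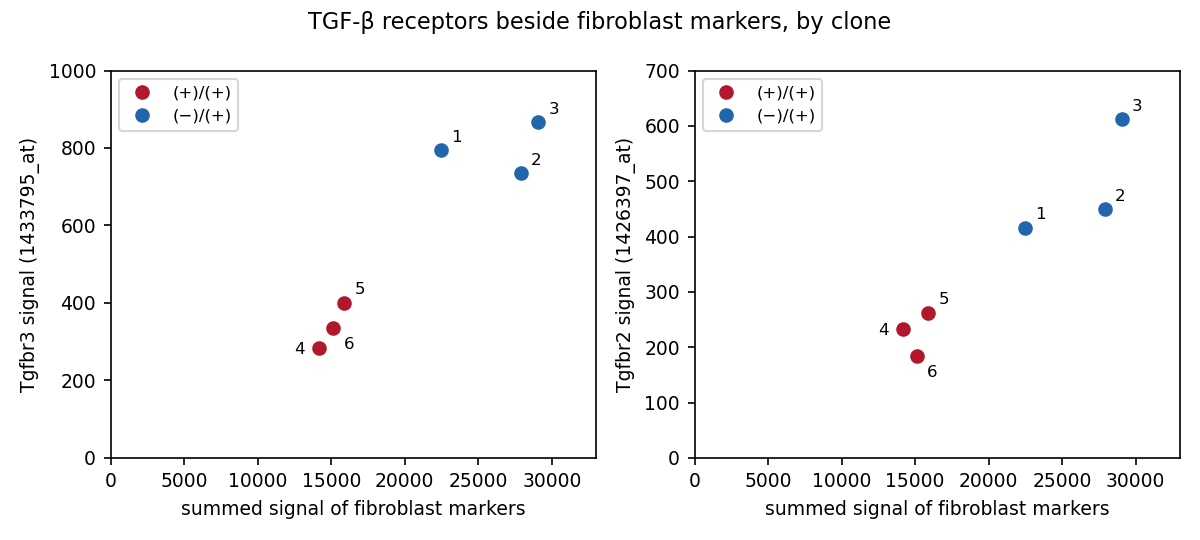
Signal of Tgfbr3 (left) and Tgfbr2 (right) on the y axis against the summed signal of 23 fibroblast markers (x axis), 1 point per clone with its number, red for (+)/(+) and blue for (-)/(+). The (+)/(+) clones lie at sums of 14157 to 15902 and the (-)/(+) clones at 22443 to 29050, with no overlap on either axis.

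The genes whose signals followed Tgfbr3 most closely were ranked by Pearson's correlation of log2 values over the 6 clones among 11175 other tested genes. Here a gene stood for its tested probe set with the highest r, not for its brightest. The closest were the RNA helicase gene Ddx46 (r = 0.999), the actin-severing protein gene Gsn (0.995), Trrap, a subunit gene of histone acetyltransferase complexes (0.995), the basement membrane gene Nid2 (0.994) and Frmd4b (0.994). The 6 clones fall into the 2 groups, so r mostly follows the difference between them and is given as a description. In size the differences were unlike that of Tgfbr3, since Ddx46 had 724 ± 37.8 in the (+)/(+) clones and 939 ± 18.4 in the (-)/(+) clones and did not pass (adjusted p = 0.10 from limma), whereas Gsn had 449 ± 64.5 in the (+)/(+) clones and 760 ± 46.7 in the (-)/(+) clones and passed (adjusted p = 0.026; SD, n = 3 each). Frmd4b passed as well (adjusted p = 0.019), while Trrap and Nid2 did not (adjusted p = 0.082 and 0.086).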

How the data were processed

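Total RNA of 6 iPSC clones was labelled with biotin and hybridised to 1-colour Affymetrix Mouse Genome arrays, and the authors deposited MAS 5.0 signal intensities, 1 linear value per probe set, scaled to a trimmed mean of 500. Of 45101 probe sets, 64 controls were left out. Symbols came from the array annotation (34945 probe sets with 1 symbol, 34741 of them with a gene identifier in the RefSeq annotation of GRCm38.p6). Values were taken as log2(signal + 16), filtered at the median of the mean log2 values, and compared with limma 3.58.1 in R 4.3.3 (lmFit, eBayes with trend) with Benjamini-Hochberg adjustment over all tested probe sets, a procedure that was tested on simulated data. The members and gene lists were chosen with earlier results of these data known. A gene of a list stood for its brightest probe set. Named were all members, up to 4 called genes per list with the smallest adjusted p or else 2 with the highest signal, and the 5 genes most like Tgfbr3. Others were named after their values were seen. Whether the clones came from separate reprogramming cultures is not stated. The p-values set group differences against the spread between clones, which need not be that between cultures. Scan and extraction batches are not given in the sources used here, and any that followed the groups cannot be told apart from 3i. Motifs were searched in RefSeq promoter windows. Alternatives were the methods' t test, arrayWeights, eBayes with no trend, the average over a gene's probe sets, a pseudocount of 1 or 64, testing without the filter or above a mean signal of 500, scaling arrays to one median or to equal quantiles, leaving out each clone and, added after the data were examined, leaving out clones 1 and 4. Python 3.11.15 and matplotlib 3.10.9 drew the figures.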

Additional observations from a re-analysis of the deposited data

How the results depend on the processing

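No paired analysis was possible because the groups share no clone numbers. The count of called TGF-β ligand and receptor probe sets was 2 in the fit described above and was 1, Tgfbr3, with no filter and with a mean signal above 500, which leaves Tgfbr2 out of the test. By the methods' t test at its threshold of 2.5-fold it was 0, and 0 after Benjamini-Hochberg, since the folds of both receptors lie below 2.5. With 1 clone left out it was 1 to 2. The log2 differences of the 3 tested receptors kept their direction in all 12 alternatives that give one (Tgfbr3 -1.32 to -1.05, Tgfbr2 -1.26 to -0.90, Tgfbr1 0.02 to 0.36), and without 1 clone they ran from -1.32 to -1.09, -1.17 to -0.90 and 0.02 to 0.36. Of the 12 dim probe sets, Tgfb2 1438303_at and 1450923_at kept their sign in 8 of 12 alternatives. Tgfbr3 1425620_at kept its sign in 10 of 12, and Tgfb1 1445360_at and Tgfbr1 1420894_at in 11 of 12. No direction is read from these probe sets. Over all tested probe sets the count was 703 (305 higher, 398 lower). It was 1155 after scaling to a common median, which moved the median of all log2 differences by 0.15 and gave 917 higher and 238 lower, 221 with no filter, 380 with a mean signal above 500 (215 higher, 165 lower), 265 with eBayes without trend (87 higher, 178 lower), 2527 with arrayWeights, 1062 without clones 1 and 4, 35 by the methods' t test and 0 after its adjustment, and 52 to 961 without 1 clone. Calls among SMADs and their regulators were 1, with 2 for arrayWeights and without clones 1 and 4, and 0 to 1 without 1 clone. For latency, activation and trapping they were 2, with 1 after quantile normalization, scaling to a common median, no filter, eBayes without trend or the mean of all probe sets, 8 with arrayWeights and 0 to 3 without 1 clone. For target genes they were 5, with 3 for no filter, 2 for a mean signal above 500, 2 for eBayes without trend, 11 for arrayWeights, 8 without clones 1 and 4 and 1 to 7 without 1 clone. For fibroblast markers they were 7, with 3 for eBayes without trend, no filter, the mean of all probe sets or a mean signal above 500, 12 for arrayWeights and 1 to 7 without 1 clone. The count for other receptors was 0 in every alternative. Leaving out clones lowers the number of arrays, and another filter changes which probe sets are tested. What accounts for these changes was not tested. The 3 arrays per group limit the precision.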
